A study of Mus musculus with 6 samples.

Results

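Semaphorins are guidance proteins that tell growing axons and migrating cells where not to go, and in some settings where to go. Class 3 semaphorins are secreted and are mostly read by a neuropilin, which binds the ligand, together with an A-type plexin, which carries the signal across the membrane. Semaphorins of classes 4 to 7 are held on the cell surface and mostly act on plexins directly. In sympathetic neurons, whose features N2A neuroblastoma cells partly keep, neuropilins and A-type plexins position cell bodies and steer axons. All genes whose single annotated symbol names a numbered semaphorin, a plexin, *Nrp1* or *Nrp2* were taken, which gave 31 of the 19938 named genes on the arrays: 20 semaphorins, 9 plexins and 2 neuropilins. Where a gene had several transcript clusters (the probe sets of this array), the one with the highest mean over the 6 arrays was kept.

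N2A cells, a mouse neuroblastoma line, were grown with 10% fetal bovine serum and transiently transfected with 1.5 µg of an shRNA vector. The control group (n = 3) received a non-targeting control vector and the other group (n = 3) a *Paupar* knockdown construct, which targets a long noncoding RNA made upstream of *Pax6*. RNA was taken 2.5 days later from all cells of a well, and no selection of transfected cells is described for these samples. The comparison asked whether lowering *Paupar* changed the levels of these guidance genes. The study calls the samples biological replicates, the values are log2 RMA values, and no probe set carried the name *Paupar*, so the depth of the knockdown was not analysed here. Since RNA was pooled over cells, fewer cells of a type and less RNA per cell cannot be told apart. The study's oligonucleotide for the knockdown hairpin sh408, which it shows beside its profiling experiment although the labels do not name the construct, is given because it defines the treatment; capitals mark the loop and the end with the T run.
sh408: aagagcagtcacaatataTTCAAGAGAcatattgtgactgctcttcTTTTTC

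Of the receptors, 4 fell, and no semaphorin passed the test. They were *Plxna4*, *Plxna3*, *Plxnd1* and *Nrp2*, with falls between 1.34-fold and 1.50-fold, and no member rose. Of the 31 members, 15 had enough variation over the 6 arrays to be tested, which leaves 11 that were tested and did not pass and 16 that were not tested. Among all 9969 genes tested, 5.16% fell and 2.39% rose, 7.54% in all (limma, Benjamini-Hochberg adjusted p under 0.05). When all named genes were tested without the filter on variation, *Plxnd1*, *Plxna3* and *Nrp2* passed and *Plxna4* did not (adjusted p = 0.0767), against 2.1% of all genes that fell in that fit. Over all 31 members the median log2 fold change was -0.03, and 18 members lay below 0, while over all named genes the median was 0.03 and 41.6% lay below 0. The median was -0.25 for the 11 plexins and neuropilins and 0.00 for the 20 semaphorins. The 2 groups also differed in level: 9 of the 11 plexins and neuropilins stood above the median level of all named genes, and 9 of the 20 semaphorins. Members above that level had a median log2 fold change of -0.22, and members below it 0.04. Whether these medians differ, and the part of level in them, was not tested.

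**Figure D1:**
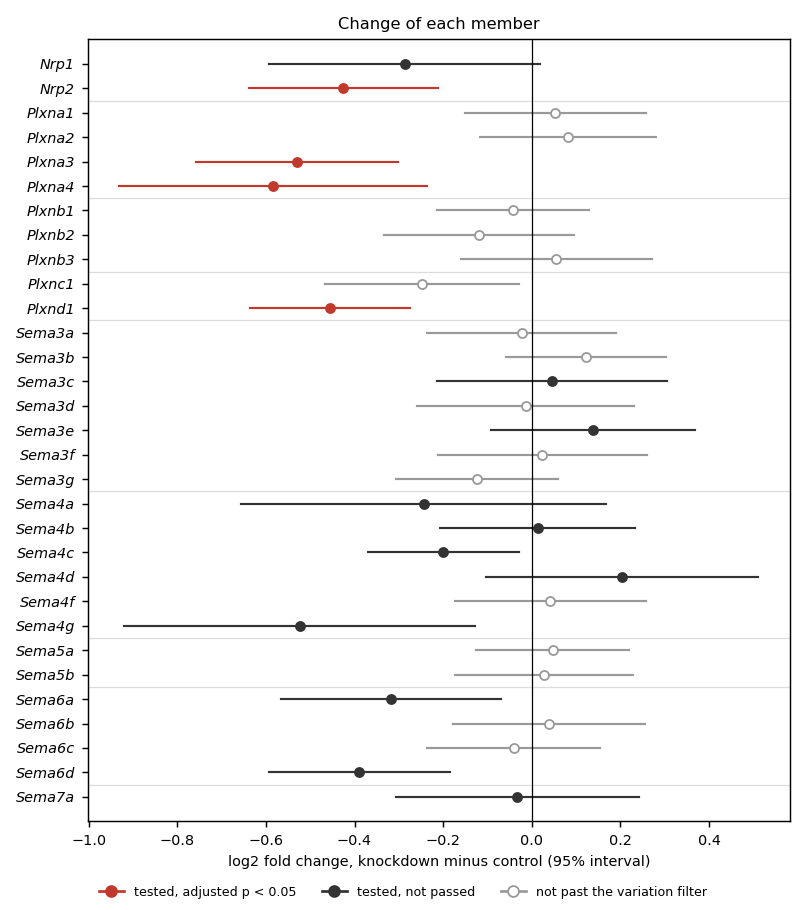
Log2 fold change (x axis, knockdown minus control) of each of the 31 members (y axis), with 95% intervals from the limma fit to all 19938 named genes and grey lines between families. Red points mark the 4 members that passed in the fit after the filter on variation, all to the left of 0, and open points the 16 members that did not pass that filter.

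*Plxna3*, an A-type plexin that pairs with neuropilins to read class 3 semaphorins, stood at 11.10, 10.97 and 10.91 in control replicates 1, 2 and 3 and at 10.46, 10.31 and 10.62 in the knockdown replicates. All 3 knockdown arrays lay below all 3 controls, with a gap wider than the SD of either group (0.10 and 0.16). The fall was 1.44-fold (log2 fold change -0.53, SE 0.12, limma adjusted p = 0.023).

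*Plxna4*, the A-type plexin known for relaying Sema3A signals in sympathetic and sensory axons, had values of 10.59, 11.04 and 10.79 in the controls and 10.53, 10.17 and 9.98 in the knockdown. The groups did not overlap, but control replicate 1 and knockdown replicate 1 were only a little apart and the spread was wide in both groups (SD 0.22 and 0.28). This was the largest change of any member, a 1.50-fold fall (log2 fold change -0.58, SE 0.16, limma adjusted p = 0.0379).

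*Plxnd1*, the receptor of Sema3E, known from blood vessels and from neurons, measured 9.82, 9.97 and 9.86 in the controls against 9.40, 9.42 and 9.46 in the knockdown. Its knockdown arrays were nearly equal (SD 0.03) and clearly below the controls (SD 0.08). The fall was 1.37-fold (log2 fold change -0.46, SE 0.11, limma adjusted p = 0.0298).

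*Nrp2*, the neuropilin that prefers Sema3F, read 10.76, 11.05 and 10.86 in the controls and 10.49, 10.51 and 10.39 in the knockdown. The groups were separate and the fall was 1.34-fold (log2 fold change -0.43, SE 0.12), just past the threshold (limma adjusted p = 0.0473).

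With an array left out, calls fell away or grew in number over all genes as well as among the members. Of all 9969 genes tested, 1.95%, 5.2% and 0.873% fell without control replicate 1, 2 and 3, and 1.62%, 1.13% and 9.08% without knockdown replicate 1, 2 and 3, against 5.16% with all arrays. No member passed without control replicate 3 or without knockdown replicate 2, only *Plxnd1* passed without control replicate 1 (adjusted p = 0.0451) and only *Plxna4* without knockdown replicate 1 (adjusted p = 0.0224). Without control replicate 2, *Plxna3* (adjusted p = 0.0311) and *Sema4g* (adjusted p = 0.0258) passed. Without knockdown replicate 3, *Plxna3* (adjusted p = 0.0125), *Plxnd1* (adjusted p = 0.0254), *Sema4g* (adjusted p = 0.0269) and *Sema6d* (adjusted p = 0.0382) passed. *Nrp2* passed in no fit that lacked an array (adjusted p between 0.0544 and 0.151). The log2 fold change of *Plxna3* lay between -0.61 and -0.45 in these 6 fits, that of *Plxna4* between -0.74 and -0.46, that of *Plxnd1* between -0.49 and -0.41 and that of *Nrp2* between -0.49 and -0.35.

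**Figure D2:**
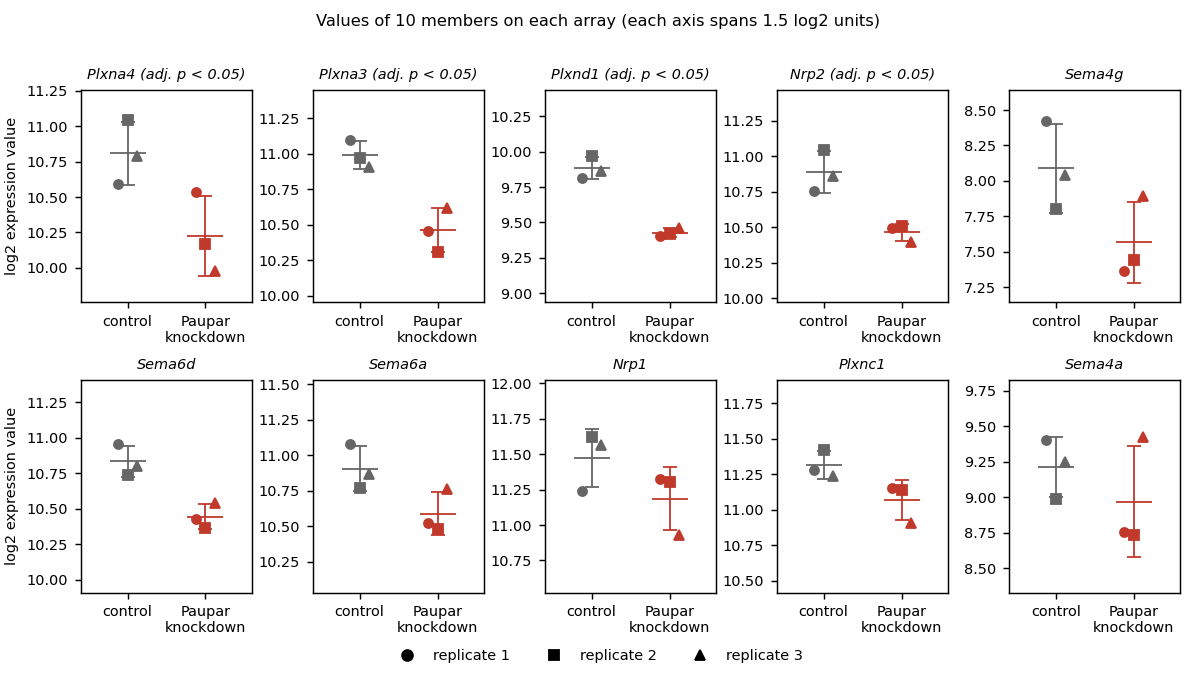
Log2 expression value (y axis) of 10 members in control (grey) and *Paupar* knockdown (red) arrays; marker shape gives the replicate, and lines with bars the mean and SD, n = 3 per group. In the panels of *Plxna4*, *Plxna3*, *Plxnd1* and *Nrp2* all knockdown points lie below all control points, while the groups overlap for *Sema4g*, *Nrp1* and *Sema4a*.

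The other plexins gave smaller differences. *Plxna1* and *Plxna2*, the remaining A-type plexins, differed by 0.05 (95% interval -0.15 to 0.26) and 0.08 (-0.12 to 0.28) on the log2 scale, so a fall of the size of that of *Plxna3* lies outside both intervals. *Plxna2* had a low mean level (percentile 29.9 of all named genes), so its interval does not show that it was unchanged. Among the B-type plexins, *Plxnb1* differed by -0.04 (-0.21 to 0.13), *Plxnb2* by -0.12 (-0.33 to 0.09) and *Plxnb3* by 0.06 (-0.16 to 0.27). These 5 plexins did not pass the filter on variation, and their intervals come from the fit to all named genes. *Plxnc1*, the receptor of Sema7A, did not pass it either. Its controls stood at 11.28, 11.42 and 11.24 and its knockdown arrays at 11.15, 11.14 and 10.91. The groups were just apart, with a log2 difference of -0.25 (adjusted p = 0.213 in the limma fit to all named genes). *Nrp1*, the neuropilin that prefers Sema3A and also binds VEGF, had 11.24, 11.62 and 11.56 in the controls and 11.33, 11.31 and 10.93 in the knockdown. Control replicate 1 lay within the knockdown values, and the difference of -0.29 did not pass (limma adjusted p = 0.217).

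Among the 20 semaphorins 10 were tested and 0 passed in limma after adjustment. An unadjusted limma p under 0.05 was found for 3, *Sema6d*, *Sema4g* and *Sema6a*, all below 0. Of all 9969 genes tested, 2622 had such a p, 1521 of them below 0. In addition, 4 of the 20 semaphorins had all knockdown arrays below all controls: *Sema6d*, *Sema6a*, *Sema4c* and *Sema3g*. Over all members this held for 9 and the opposite for 1, *Sema3b*, while over all named genes 10.8% lay wholly below and 12.8% wholly above the controls. *Sema6d*, a transmembrane ligand of A-type plexins, came nearest to passing together with *Sema4g*. Its controls were 10.96, 10.74 and 10.80 and its knockdown arrays 10.43, 10.36 and 10.54. The groups were separate (log2 fold change -0.39, SE 0.12, limma adjusted p = 0.0607, 95% interval -0.65 to -0.13). *Sema6a*, a related ligand that binds *Plxna2* and *Plxna4* proteins, stood at 11.08, 10.77 and 10.86 in the controls and 10.52, 10.48 and 10.76 in the knockdown. Knockdown replicate 3 all but reached control replicate 2, and the difference was -0.32 (limma adjusted p = 0.142).

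*Sema4g*, a membrane-bound semaphorin, measured 8.43, 7.80 and 8.04 in the controls and 7.36, 7.44 and 7.90 in the knockdown. Knockdown replicate 3 lay above control replicate 2, so the groups overlapped, but the difference was the largest of any semaphorin (-0.52, SE 0.17, limma adjusted p = 0.0738). *Sema4a*, known from immune cells and the retina, also overlapped. Its controls stood at 9.41, 8.99 and 9.25 and knockdown replicates 1 and 2 at 8.75 and 8.73, whereas knockdown replicate 3, at 9.42, was the highest of the 6 arrays (difference -0.24, limma adjusted p = 0.383). *Sema4c*, a ligand of *Plxnb2* protein, read 10.89, 10.87 and 10.90 in the controls and 10.68, 10.65 and 10.73 in the knockdown. It was very even within groups (SD 0.02 and 0.04) and differed by -0.20 (limma adjusted p = 0.263). *Sema4d*, the best known ligand of *Plxnb1* protein, ran from 10.52 to 11.02 in the controls and from 10.84 to 11.15 in the knockdown. The groups overlapped, with a difference of 0.20 (limma adjusted p = 0.38, 95% interval -0.11 to 0.51). A second probe set of *Sema4d* differed by 0.07, and the 2 probe sets of *Sema6b* held identical values. *Sema4b* and *Sema4f* differed by 0.01 and 0.04.

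The 7 secreted class 3 semaphorins showed no difference larger than 0.14 on the log2 scale. *Sema3a*, which repels sympathetic and sensory axons, differed by -0.02 (95% interval -0.24 to 0.19), and *Sema3f*, the ligand of *Nrp2* protein, by 0.02 (-0.21 to 0.26). *Sema3e*, the ligand of *Plxnd1* protein, differed by 0.14 (-0.13 to 0.41). *Sema3b*, *Sema3c*, *Sema3d* and *Sema3g* differed by 0.12, 0.04, -0.01 and -0.12. The values of *Sema3a*, *Sema3c* and *Sema3d* lay between 5.19 and 5.91 on every array. Their mean levels, and that of *Sema3e*, were low among all named genes (percentiles 10.5, 13.3, 14.9 and 19.9). The small differences of these genes near the low end do not show that they were unchanged. Of the remaining semaphorins, *Sema5a* and *Sema5b* differed by 0.05 and 0.03, *Sema6b* and *Sema6c* by 0.04 and -0.04, and *Sema7a*, which acts through integrins and *Plxnc1* protein, by -0.03. *Sema5a* and *Sema7a* also had low mean levels (percentiles 18.5 and 28.4), and the same limit holds for them.

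The semaphorins varied between arrays of 1 group. Of the 20 semaphorins, 10 had their highest value on control replicate 1 and none on control replicate 2. Relative to the control mean, the mean over the semaphorins was 0.12, -0.12 and -0.00 in the 3 controls and -0.09, -0.09 and -0.00 in the 3 knockdown arrays, so the groups overlapped. The mean over the 11 plexins and neuropilins was -0.02, 0.05 and -0.03 in the controls and -0.19, -0.22 and -0.28 in the knockdown. Control replicate 1 and knockdown replicate 3 stood apart over all genes too, with the lowest array weights in limma (0.289 and 0.312, against 0.660 to 4.44 for the others). Without these 2 arrays, an alternative chosen after seeing the data, 5 members fell: *Plxna3*, *Plxnd1*, *Nrp2*, *Sema4g* and *Sema6d*, where 10.5% of all genes tested fell and 5.79% rose, while *Plxna4* had an adjusted p of 0.0562. With all 6 arrays kept and weighted by their spread, 10 members fell and *Sema3e* rose, where 26.7% of all genes tested fell and 29.1% rose.

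**Figure D3:**
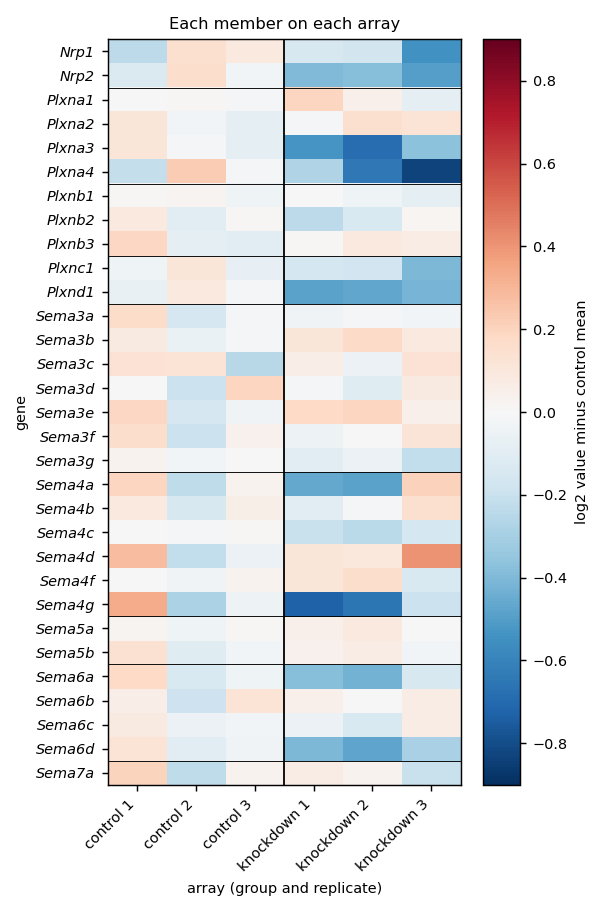
Log2 value minus the control mean (colour) of each member (rows, by family) on each array (columns). The rows of *Plxna3*, *Plxna4*, *Plxnd1* and *Nrp2* are blue on all 3 knockdown arrays, and *Sema4a* is blue on knockdown replicates 1 and 2 and red on knockdown replicate 3.

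RefSeq promoter windows (GRCm38.p6, 250 bases before to 50 after a start) were found for 26 members, in 37 windows. *Plxna1*, *Plxna4*, *Sema3b*, *Sema3f* and *Sema6a* had no entry. The letters TTCACGC, the core of the site bound by the PAX6 paired domain, were searched on both strands and were in 0 of the 37 windows and in 1.26% of all 32851 windows. With so small a share over all windows, a count of 0 in 37 windows cannot tell the members from other genes. The median GC content was 63.7% in the members' windows and 52.7% in all windows. The GC box GGGCGG, or CCGCCC on the other strand, which was chosen after the sequences were seen, was found in the 250 bases before the start in 27 of the 37 windows (73.0%) and in 32.7% of all windows. Of the 4 receptors that fell, 3 have an entry, and the 250 bases before their starts are shown with the GC boxes in capitals. They are *Nrp2* at chr1:62703067-62703316 (plus strand), *Plxna3* at chrX:74328816-74329065 (plus strand) and *Plxnd1* at chr6:115995006-115995255 (minus strand). *Nrp2* held 5 GC boxes, a pair of them overlapping, and *Plxna3* and *Plxnd1* held 1 each. These matches are a description of the letters only.
Nrp2: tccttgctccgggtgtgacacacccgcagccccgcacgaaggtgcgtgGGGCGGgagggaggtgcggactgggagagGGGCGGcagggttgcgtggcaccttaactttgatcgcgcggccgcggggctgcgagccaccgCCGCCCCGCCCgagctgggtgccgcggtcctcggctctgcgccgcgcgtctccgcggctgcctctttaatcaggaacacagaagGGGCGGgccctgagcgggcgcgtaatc
Plxna3: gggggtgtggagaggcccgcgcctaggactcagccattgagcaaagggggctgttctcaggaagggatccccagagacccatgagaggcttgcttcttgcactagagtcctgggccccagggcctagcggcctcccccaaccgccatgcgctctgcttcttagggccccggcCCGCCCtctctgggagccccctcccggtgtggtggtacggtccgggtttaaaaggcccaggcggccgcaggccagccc
Plxnd1: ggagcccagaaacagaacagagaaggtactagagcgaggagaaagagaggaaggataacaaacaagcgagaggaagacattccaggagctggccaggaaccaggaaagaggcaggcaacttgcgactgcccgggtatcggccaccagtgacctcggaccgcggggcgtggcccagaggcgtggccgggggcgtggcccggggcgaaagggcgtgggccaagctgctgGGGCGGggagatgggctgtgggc

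Other genes of semaphorin signalling were taken from 7 lists. Of 80 listed genes 76 were measured, 34 were tested, 4 fell and 1 rose, beside 5.16% and 2.39% of all genes tested, with a median log2 fold change of -0.00 over the 76. The 4 that fell were 3 integrin subunits and an enzyme that acts on actin. *Itgb1* and *Itga1*, which together form a collagen receptor that Sema7A also binds, stood at log2 12.51 ± 0.13 and 10.57 ± 0.03 in the controls and fell to 11.99 ± 0.17 and 9.99 ± 0.20 (mean ± SD over 3 arrays; limma adjusted p = 0.0285 and 0.017). *Itga2*, another partner of *Itgb1* protein, fell by 0.70 (limma adjusted p = 0.0231). *Mical2*, of the MICAL family of actin-oxidising enzymes, fell from 8.87 ± 0.05 to 8.26 ± 0.24 (limma adjusted p = 0.0167). *Tgfb1*, a growth factor that neuropilins can bind, rose from 9.63 ± 0.27 to 10.21 ± 0.18 (limma adjusted p = 0.0332). For these 5 genes the groups did not overlap. Each of the 4 falls passed when control replicate 2 or knockdown replicate 3 was the array dropped, and in no other such fit. The rise of *Tgfb1* passed only when knockdown replicate 1 was dropped (limma adjusted p = 0.043).

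No gene passed among the collapsin response mediators, which relay Sema3A signals to the cytoskeleton (5 measured), the small GTPases (8), the downstream kinases and actin regulators (11) or the enzymes that cut semaphorins (6). Of these 4 lists 9 genes were tested, 2 each except for 3 kinases and actin regulators. Of the 9, 3 had an unadjusted limma p under 0.05, not all in the same direction, beside 2622 of all 9969 genes tested. The median log2 fold changes of the lists, over all their measured genes, were 0.02, 0.03, 0.09 and -0.00. Among 20 co-receptors and other receptors the 3 integrin subunits were the only calls, and *Tgfb1* was the only call among 7 other neuropilin ligands.

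Some markers of the labelled cell type fell too. Of 11 measured sympathetic neuroblastoma markers, 9 were tested and 3 fell, beside 5.16% of all genes tested: *Dbh* by 1.09, *Th* by 0.68 and *Chgb* by 0.45 on the log2 scale. The mean of that list lay between 11.21 and 11.30 on the control arrays and between 10.91 and 11.07 on the knockdown arrays. Of its 11 genes 10 lay below 0, but the other differences were smaller, from -0.34 for *Chga* to 0.20 for *Elavl4*. *Tubb3* and *Stmn2* differed by -0.05 and -0.15. Of 32 measured markers of glia, microglia and blood, endothelium, and fibroblasts and muscle, 14 were tested and 0 passed. An unadjusted limma p under 0.05 was found for 1 of the 14, beside 2622 of all 9969 genes tested. Of the 32 markers 9 lay below 0, and their median log2 fold change was 0.08. Array values have no true zero, and the means of these marker lists lay between 6.38 and 7.27 on all arrays. Any link between the falls of *Dbh*, *Th* and *Chgb* and those of the receptors was not tested.

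**Figure D4:**
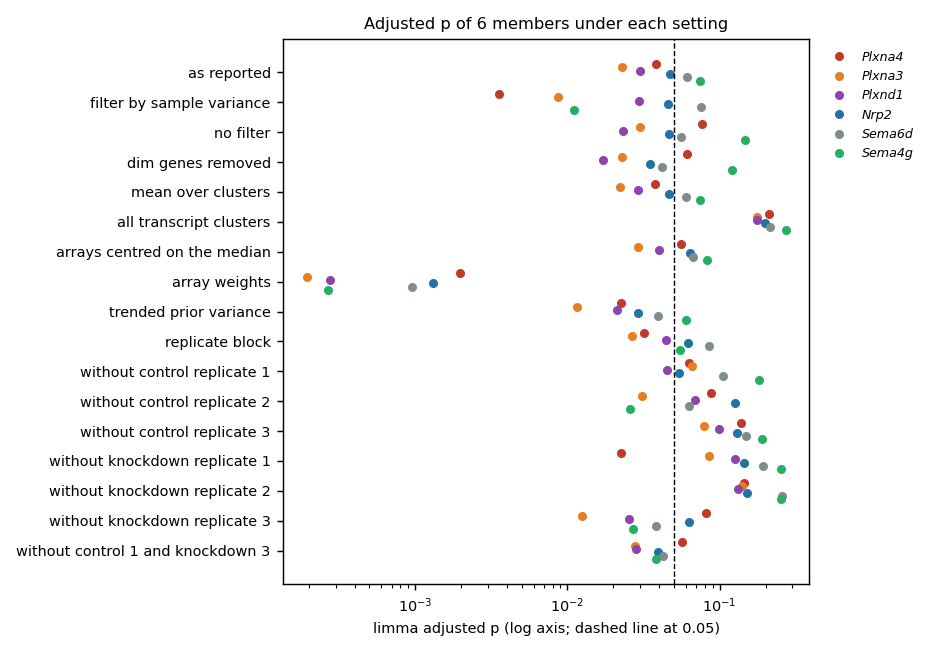
Adjusted p (x axis, log scale, dashed line at 0.05) of 6 members in the limma fit as reported and under each of 16 alternatives (y axis). *Plxna3* and *Plxnd1* lie left of the line under 11 of the 16 alternatives, *Nrp2* under 7 and *Plxna4* under 6, and no member does when all transcript clusters are kept.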

How the data were processed

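RNA of 3 control and 3 *Paupar* knockdown N2A samples was hybridised to 6 Affymetrix Mouse Gene 1.0 ST arrays from 200 ng of RNA each. The deposited values are log2 RMA summaries of 35556 transcript clusters, which the authors made with the oligo package (background correction, then quantile normalisation), in versions that the sources used here do not state. No scanner files were used, so background correction could not be varied. The number of arrays limits the precision.

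Clusters were named through the platform annotation (21789 with 1 symbol, 1621 with several, 12146 with none), and 1 cluster per gene was kept, which gave 19938 genes. Following the study, which also dropped genes of little variation, the 50% of genes with the lowest interquartile range were left out (9969 remained). A linear model with moderated variances (limma 3.58.1, lmFit and eBayes, R 4.3.3) gave log2 fold changes, SEs and p-values, the latter adjusted over all genes tested after Benjamini and Hochberg (threshold 0.05). Members that did not pass the filter were read from a fit to all 19938 genes. The fit was tested on simulated data with the same spread on every array. These arrays differed in spread, so that test does not bear on how calls shift when an array is left out. Named genes were the members that passed, the 6 other members with the largest differences, each other member at least once, and every pathway gene that passed. The members and lists were chosen with earlier results of these data known. The pathway lists were co-receptors and other receptors, other neuropilin ligands, collapsin response mediators, plexin-bound enzymes and adaptors, small GTPases, downstream kinases and actin regulators, and processing enzymes.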

Additional observations from a re-analysis of the deposited data

How the results depend on the processing

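The fit was repeated under 16 alternatives, 1 of them chosen after seeing the data. The 4 falls among the members kept their direction in all of them, and *Plxna3* and *Plxnd1* passed in 11, *Nrp2* in 7 and *Plxna4* in 6. The number of members that fell was 0 when all transcript clusters were kept in the fit (0 of 17778 clusters passed in limma, 3015 had an unadjusted p under 0.05), 2 with arrays centred on the median and 10 with arrays weighted by their spread, under which 1 member, *Sema3e*, rose. That weighting called 26.7% of all genes as falls and 29.1% as rises. With 1 array left out in turn, 0 to 4 members fell and 0 rose, while falls over all genes ran from 87 to 905 of 9969 in the same fits. Of the pathway partners, 0 fell and 0 rose with all transcript clusters, 15 fell and 11 rose with array weights, and 7 fell and 0 rose without control replicate 1 and knockdown replicate 3, where 10.5% of all genes fell and 5.79% rose. None rose (0) with no filter on variation or with dim genes removed, and with 1 array left out 0 to 6 fell and 0 to 1 rose. The cause of these shifts was not tested. The deviations of arrays with the same replicate number had correlations of -0.29, 0.06 and 0.08, and those of unlike number from -0.32 to 0.37. With 3 arrays per group, these values cannot settle whether the numbers mark pairs. With the replicate block 3 members fell (*Plxna3*, *Plxna4* and *Plxnd1*) and *Nrp2* had a limma adjusted p of 0.0616. Over all genes 680 in place of 752 passed with that block.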
